A study of Mus musculus with 10 samples.

Results

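Transcripts of the vessels, the connective tissue and the nerve-ensheathing glia of pancreatic islets were examined through 28 genes, picked by symbol out of 24475 in the deposited table. They fall into 3 subgroups: 12 endothelial genes, 12 mesenchymal genes of fibroblasts, stellate cells and pericytes, and 4 Schwann cell genes. The islets came from C57BL/6 mice in 2 groups: 5 libraries after REGN1193, a blocking antibody against the glucagon receptor (GCGR), and 5 libraries after an isotype control antibody. Replicates are numbered 1 to 5 in the first group and 6 to 10 in the second. Both groups share the strain, the density gradient isolation of islets and the polyA RNA libraries. The labels give no dose, duration, age, sex, litter or batch, and do not state whether the libraries were made from different animals, so a p-value here speaks only of the spread between libraries, which may be technical. Whole islets were sequenced: in such bulk RNA, fewer cells of a type and less RNA per cell cannot be told apart. The question asked here is whether transcripts of these supporting cells differ between islets with and without the receptor block.

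As background, islets are threaded by a dense bed of fenestrated capillaries. Endocrine cells secrete vascular endothelial growth factor (VEGF), which acts on the receptors Kdr and Flt1 of endothelial cells, and mural cells secrete angiopoietins, which act on the receptor Tek. Pericytes wrap the capillaries and are recruited through the platelet-derived growth factor (PDGF) receptor Pdgfrb, while fibroblasts and stellate cells deposit collagens around ducts, vessels and islets. Schwann cells sheathe the nerve fibres and form a sheet around the islet border.

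Levels are RPKM, read numbers scaled to transcript length and library size, which allow levels of different genes to be compared per length. Log2 fold changes, or log2 ratios, are of antibody over isotype and were computed on RPKM + 0.5, which understates changes of genes near 0.5 RPKM. SE is the standard error that limma gives, and adjusted p is the Benjamini-Hochberg value over the 13450 genes whose mean was at least 0.5 RPKM. A gene is called at an adjusted p under 0.05. Of the 28 genes 26 were tested and 2, Vwf and S100b, lay under that mean. The estimated depth was 14.47 to 18.01 megareads in the antibody libraries and 12.28 to 14.79 megareads in the isotype libraries (exact permutation p = 0.0476). Gcg, the glucagon gene known to increase when its receptor is blocked, checked the labels: it stood between 50503 and 76928 RPKM in the antibody libraries and between 9513 and 17038 RPKM in the isotype libraries (log2 fold change 2.39, SE 0.27, adjusted p = 0.00174). The labelled tissue was present, with Ins2, an insulin gene, at 143596 to 340231 RPKM. Acinar cell markers of the exocrine pancreas were also present: the summed level of 16 of them was 4401 to 14078 RPKM with the antibody and 3296 to 19364 with the isotype control. None of these 16 was at 0 in every library, and their part in the results below was not tested.

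None of the 26 tested genes was called in either direction with limma. Over all tested genes 0.394% were called higher and 0.0149% lower, so a count of 0 among 26 is near that background. At an unadjusted limma p under 0.05 there was 1 of the 26, Pdgfrb with a negative fold, where all tested genes gave 7.02%, 2.84% higher and 4.18% lower. By the exact permutation test at p under 0.05 there were 0 of 28, against 7.14% of tested genes. The ranges of both groups overlapped for each of the 28 genes, and 1.99% of tested genes had groups that did not overlap. Some of these genes spread widely between libraries of 1 group: 11 of the 26 had a within-group SD above the 95th percentile of all tested genes, which was 0.70 on the log2 scale. None of them was endothelial, where the widest, Emcn, lay at the 94.6th percentile. A wide spread was not particular to these genes. Lyz2 of macrophages lay at the 99.4th and Cd79a of lymphocytes at the 98.9th percentile, while C1qa of macrophages lay at the 88.3rd. The median within-group SD was 0.94 for the mesenchymal genes, 0.61 for the Schwann cell genes and 0.46 for the endothelial genes, against 0.25 over all tested genes.

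**Figure D1:**
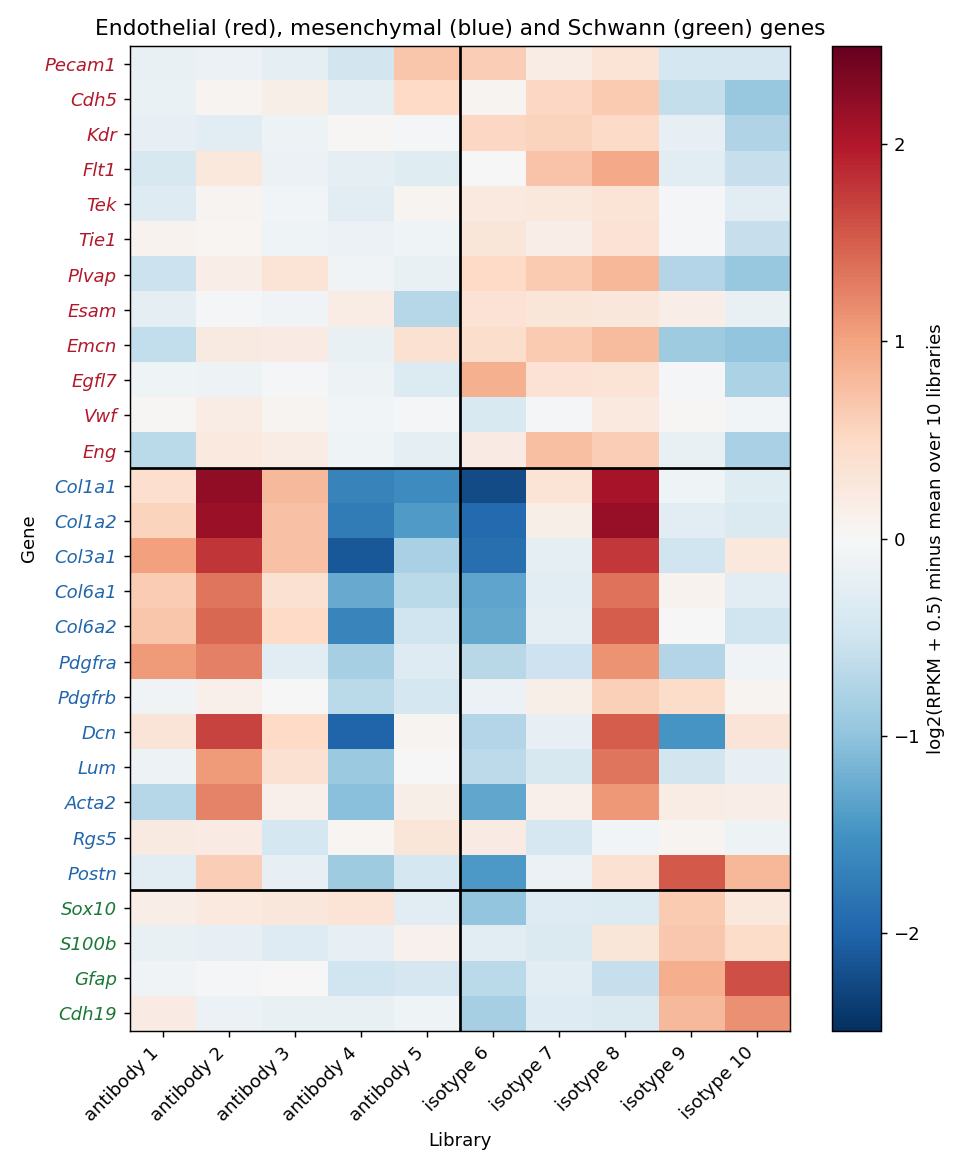
Level of each of the 28 genes in each library, as log2(RPKM + 0.5) minus the gene's own mean over the 10 libraries. Rows are genes by subgroup and columns are antibody libraries 1 to 5 and isotype libraries 6 to 10. Most endothelial genes are high in isotype 6 to 8 and low in isotype 9 and 10, most mesenchymal genes are high in antibody 2 and isotype 8, and the Schwann cell genes are high in isotype 9 and 10.

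The sequences just upstream of some of these genes are shown as a description. Across libraries Col1a2 and Col3a1 moved together (Pearson's r = 0.96, permutation p = 9e-05, adjusted over 378 pairs p = 0.00262). The relation of Eng and Tie1 was weaker (r = 0.71, permutation p = 0.0205, adjusted p = 0.08). It did not pass an adjusted p of 0.05, and r was 0.35 without isotype 8 and 10. A link between the sequences and these correlations was not tested. RefSeq promoter windows were matched by symbol for 17 of the 28 genes. The 250 bases before the start of a pair of collagen genes and a pair of endothelial genes follow, 5′ to 3′ on the gene's strand, from RefSeq GRCm38.p6. Col1a2 lies at chr6:4505618-4541543 and its window at chr6:4505368-4505617 (plus strand), Col3a1 at chr1:45311538-45349706 and its window at chr1:45311288-45311537 (plus strand). Eng lies at chr2:32646595-32682669 and its window at chr2:32646345-32646594 (plus strand), Tie1 at chr4:118471191-118489849 and its window at chr4:118489850-118490099 (minus strand). Capitals mark CCAAT, on either strand, in the collagen windows and GGAA, on either strand (TTCC on the other), in the endothelial windows.
Col1a2: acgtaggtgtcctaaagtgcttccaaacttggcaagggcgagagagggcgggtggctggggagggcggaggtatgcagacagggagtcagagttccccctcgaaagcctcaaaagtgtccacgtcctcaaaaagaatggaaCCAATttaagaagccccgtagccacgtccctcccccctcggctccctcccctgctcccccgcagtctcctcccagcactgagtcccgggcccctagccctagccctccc
Col3a1: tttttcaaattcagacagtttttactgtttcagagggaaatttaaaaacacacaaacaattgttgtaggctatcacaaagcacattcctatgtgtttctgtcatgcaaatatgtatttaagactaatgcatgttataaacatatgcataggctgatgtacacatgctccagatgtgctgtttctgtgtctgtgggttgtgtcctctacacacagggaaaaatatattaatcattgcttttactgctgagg
Eng: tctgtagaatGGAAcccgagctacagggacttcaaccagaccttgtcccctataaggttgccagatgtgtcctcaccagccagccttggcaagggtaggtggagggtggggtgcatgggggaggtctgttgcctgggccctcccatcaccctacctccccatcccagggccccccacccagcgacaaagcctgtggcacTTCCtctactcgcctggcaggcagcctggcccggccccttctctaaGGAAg
Tie1: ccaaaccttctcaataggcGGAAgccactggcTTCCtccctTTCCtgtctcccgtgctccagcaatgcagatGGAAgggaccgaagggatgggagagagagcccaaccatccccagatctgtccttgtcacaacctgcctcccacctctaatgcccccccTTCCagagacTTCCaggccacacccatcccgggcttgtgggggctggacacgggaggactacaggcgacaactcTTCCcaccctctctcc
CCAAT, the box bound by NF-Y, occurred 1 time in the Col1a2 window and 0 times in that of Col3a1. It was found in 33.8% of all 32851 RefSeq windows of this length. GGAA, the core that ETS family factors bind, occurred 3 times upstream of Eng and 7 times upstream of Tie1, and 93.4% of all windows held it. It also occurred 3 times in the Col1a2 window and 3 times in that of Col3a1, left in lower case there. TATAAA was found 1 time in the Col3a1 window, left in lower case here, and in 12.4% of all windows. These matches describe letters and do not show a bound site.

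Of the 11 tested endothelial genes 10 had negative folds and 1, Cdh5, a positive one. Their median fold was -0.21 on the log2 scale, with a range from -0.36 to 0.12. That median was the fold of Tek, a gene close to the filter of 0.5 RPKM. Its isotype mean (0.597) lay above the filter and its antibody mean (0.442) below. Vwf, which the filter left out, had a positive fold of 0.08 (SE 0.10) when no filter was used. The median of all 12 genes was then -0.17. Over all tested genes the median was -0.07 and 66.5% of folds were negative. The endothelial median stayed negative under each scaling tried, between -0.26 and -0.14, while that of all genes moved between -0.14 and 0.01. The summed level of the 12 genes ran from 35.9 to 48.6 RPKM in the antibody libraries and from 26.5 to 72.3 RPKM in the isotype libraries, so the antibody range lay within the isotype range. Negative folds were also found in genes of some other cells: 16 of 16 acinar markers (median -0.59, 0 called, 2 at an unadjusted p under 0.05) and 9 of 9 beta cell markers (median -0.43, 0 called, 1 at an unadjusted p under 0.05). Under the scalings tried these medians stayed between -0.67 and -0.51 and between -0.51 and -0.35. Folds were positive for 7 of 7 alpha cell markers (median 1.20, 6 called higher). With 0 called, they were positive for 5 of 5 red cell and platelet, 8 of 10 neuron and 6 of 8 lymphocyte markers tested. Over all tested genes 0.394% were called higher and 0.0149% lower, and 7.02% had an unadjusted limma p under 0.05. Positive folds were also found for 7 of 13 macrophage, 5 of 11 duct and 2 of 5 lymphatic and mesothelial markers. The part of any of these cells in the endothelial folds was not tested.

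The receptors of the vessel growth factors come first. Kdr (chr5:75932827-75979072), the main signalling receptor for VEGF, stood at 3.85, 3.67, 4.12, 4.64 and 4.38 RPKM in antibody libraries 1 to 5 and at 6.66, 6.86, 6.50, 3.87 and 2.47 RPKM in isotype libraries 6 to 10. Isotype 6 to 8 lay above every antibody library, and isotype 10 lay below every one. The means were 4.13 ± 0.39 and 5.27 ± 1.99 RPKM (SD, n = 5 each), and the log2 fold change was -0.24 (SE 0.23, adjusted p = 0.88). Flt1, a VEGF receptor that largely traps its ligand, ranged from 1.52 to 2.71 RPKM with the antibody and from 1.31 to 4.67 RPKM with the isotype control (log2 fold change -0.33, SE 0.27, adjusted p = 0.863). The angiopoietin receptor Tek ranged from 0.302 to 0.561 and from 0.331 to 0.774 RPKM (-0.21, SE 0.18, adjusted p = 0.863). Tie1, the partner of Tek that binds no known ligand alone, ranged from 0.792 to 1.04 and from 0.461 to 1.36 RPKM (-0.09, SE 0.19, adjusted p = 0.954). Isotype 7 or 8 was the highest library for all 4 receptor genes, and isotype 10 was the lowest for 3 of them.

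Among the junction genes, Cdh5 (chr8:104101613-104144504), which encodes VE-cadherin of the endothelial adherens junction, stood at 3.54, 4.24, 4.47, 3.31 and 5.89 RPKM in antibody 1 to 5. In isotype 6 to 10 it stood at 4.24, 5.95, 6.58, 2.47 and 1.85 RPKM. The isotype libraries enclosed the whole antibody range, the means were 4.29 ± 1.02 and 4.22 ± 2.07 RPKM (SD, n = 5 each), and the log2 fold change was 0.12 (SE 0.29, adjusted p = 0.958). Without isotype 10 the Cdh5 fold was -0.10, the opposite sign. Pecam1 (chr11:106654213-106715281), an adhesion molecule of endothelial cells that leukocytes and platelets also carry, stood at 4.27, 4.41, 4.11, 3.46 and 8.29 RPKM in antibody 1 to 5. In isotype 6 to 10 it stood at 7.82, 5.65, 6.36, 3.50 and 3.56 RPKM (log2 fold change -0.12, SE 0.25, adjusted p = 0.954). Antibody 5 was the highest of all 10 libraries for Pecam1. It also had the highest summed level of 12 lymphocyte markers, 74.8 RPKM where the other libraries had 7.34 to 31.2 RPKM. None of the 12 lymphocyte markers was at 0 in every library, and their part in the Pecam1 value was not tested.

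Esam (chr9:37528089-37538319), a tight junction adhesion molecule, had the most negative fold of the endothelial genes. It stood at 3.86, 4.49, 4.31, 5.34 and 2.61 RPKM in antibody 1 to 5 and at 6.07, 5.78, 5.71, 5.21 and 3.98 RPKM in isotype 6 to 10. Isotype 6, 7 and 8 lay above all antibody libraries, and the other isotype libraries lay inside the antibody range. The means were 4.12 ± 1.0 and 5.35 ± 0.83 RPKM (SD, n = 5 each). The log2 fold change of -0.36 (SE 0.17, adjusted p = 0.722) had a 95% interval from -0.73 to 0.01, and the single-gene exact permutation p was 0.0794. Unlike Pecam1, Esam was lowest in antibody 5.

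The other endothelial genes encode surface and secreted proteins. Emcn, the sialomucin endomucin of capillaries and veins, had the highest mean of the 12 over all libraries, 8.17 RPKM. It stood at 4.71, 8.79, 8.67, 6.52 and 9.87 RPKM in antibody 1 to 5 and at 10.3, 12.1, 13.3, 3.82 and 3.56 RPKM in isotype 6 to 10. Isotype 6 to 8 were the 3 highest and isotype 9 and 10 the lowest libraries, which left a log2 fold change of -0.01 (SE 0.36, adjusted p = 0.999) with a 95% interval from -0.79 to 0.78. That sign turned positive, to 0.05 to 0.07, under median centring, quantile normalization and trimmed mean scaling. Plvap, the protein of the diaphragms that span fenestrae, ranged from 3.81 to 7.46 RPKM with the antibody and from 2.74 to 10.6 RPKM with the isotype control (-0.12, SE 0.34, adjusted p = 0.963). Egfl7, a secreted vascular matrix protein, ranged from 4.62 to 5.89 and from 3.23 to 11.5 RPKM (-0.29, SE 0.25, adjusted p = 0.865). Eng, a co-receptor for TGF-beta family ligands, ranged from 3.10 to 6.36 and from 2.78 to 9.17 RPKM (-0.23, SE 0.28, adjusted p = 0.91). The order of mean level over the 10 libraries was Emcn, Egfl7 (6.30), Plvap (6.24), Eng (5.58), Pecam1 (5.14), Esam (4.74), Kdr (4.70), Cdh5 (4.25), Flt1 (2.34), Tie1 (0.96), Tek (0.52) and Vwf (0.292 RPKM). Neighbours from Emcn to Cdh5 differed by less than the isotype SD of either gene.

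Vwf, the von Willebrand factor that large-vessel endothelium and platelets store, was the lowest of the 12. It stood at 0.308, 0.398, 0.328, 0.247 and 0.268 RPKM in antibody 1 to 5 and at 0.107, 0.274, 0.427, 0.304 and 0.255 RPKM in isotype 6 to 10, on an estimated 11.9 to 55.3 reads. Isotype 6 was the lowest and isotype 8 the highest, and the exact permutation p was 0.556. Isotype 6 was above the middle of the libraries for all other 11 endothelial genes.

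**Figure D2:**
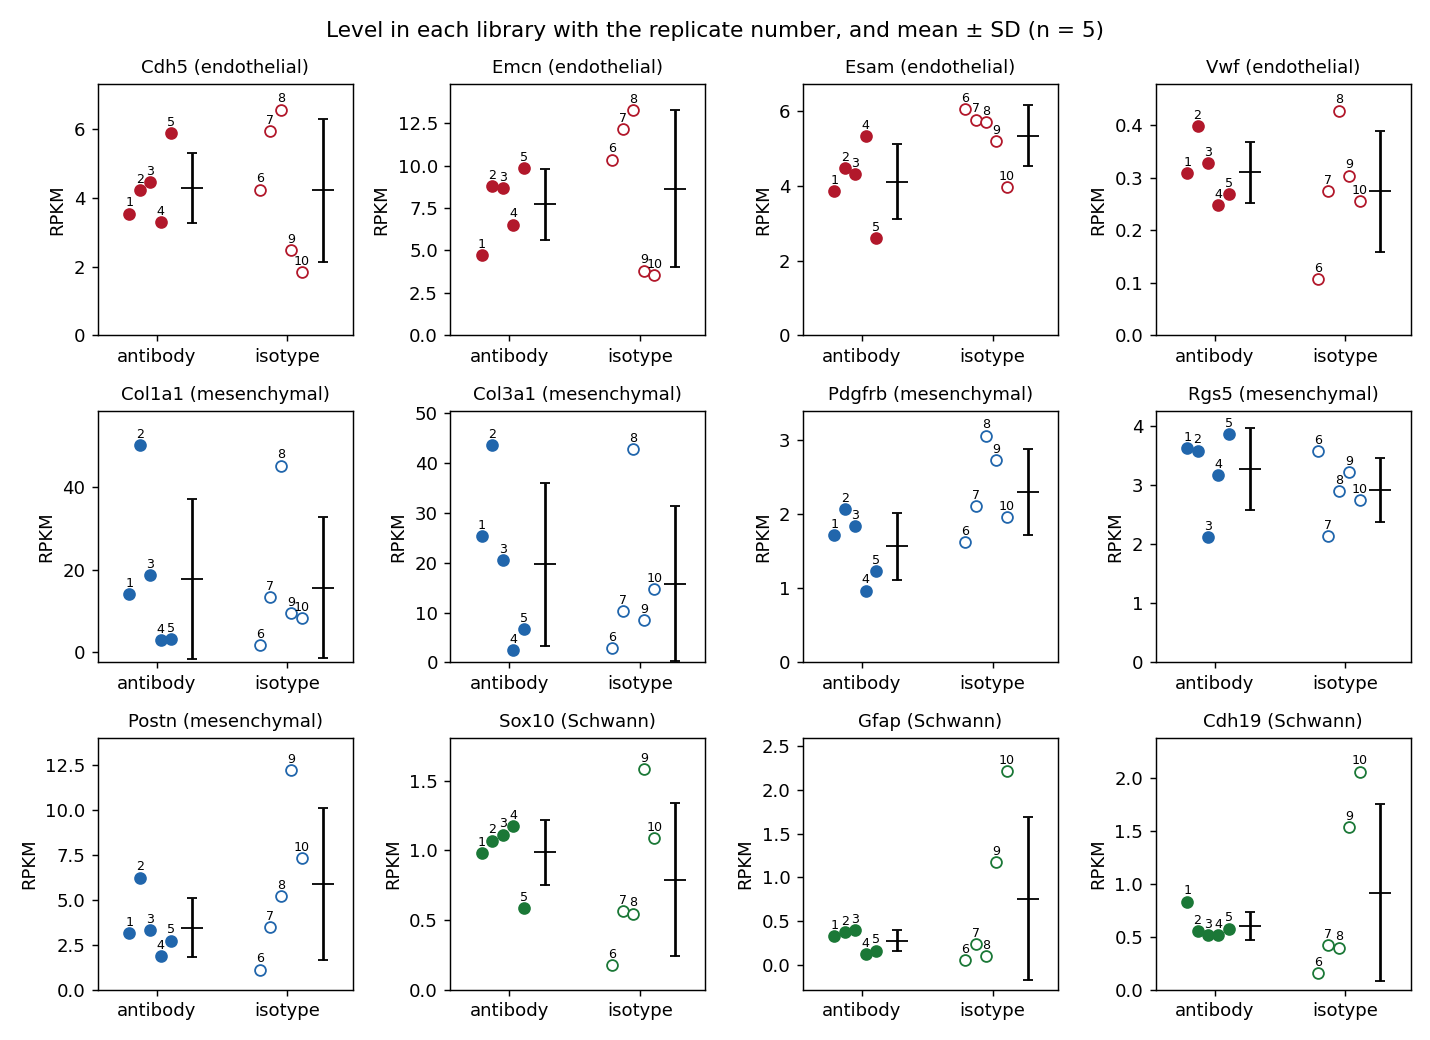
Level in RPKM of 12 genes in each library (points, numbered by replicate), with the mean and SD of each group (bars, n = 5) beside them. Groups overlap in every panel: Esam and Pdgfrb come nearest to a separation, Emcn is split within the isotype group, Col1a1 and Col3a1 are high in antibody 2 and isotype 8, and Gfap and Cdh19 are high in isotype 9 and 10. For Col1a1 and Gfap a lower SD bar passes below 0 because the SD exceeds the mean.

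Further endothelial genes, ligands and co-receptors of endothelial signalling, and basement membrane genes were taken from lists drawn up for this comparison. They gave no call among those that reached the mean needed for testing. The cells that made the ligand transcripts cannot be told apart in bulk RNA. Of 20 tested further endothelial genes 0 were called with limma, 0 had an unadjusted p under 0.05 and 18 had negative folds (median -0.19). The 4 with the smallest p were Gpihbp1, which holds lipoprotein lipase on capillaries (-0.58, SE 0.33), Rasip1, which helps form vessel lumens (-0.41, SE 0.21), Ecscr (-0.34, SE 0.23) and the sialomucin Podxl (-0.29, SE 0.19). Of 24 tested ligands and co-receptors of endothelial signalling 0 were called, 3 had an unadjusted limma p under 0.05, and the median was -0.19. Over all tested genes 7.02% had such a p. Pdgfa, a PDGF ligand that acts on Pdgfra, stood at 12.6, 13.02, 12.8, 13.1 and 9.20 RPKM in antibody 1 to 5 and at 14.3, 13.6, 16.7, 16.7 and 21.2 RPKM in isotype 6 to 10. These groups did not overlap (log2 fold change -0.42, SE 0.14, adjusted p = 0.455, exact permutation p = 0.00794, the smallest that 5 against 5 libraries allow). Pdgfa was named for the smallest limma p of its list, and 1.99% of all tested genes had groups that did not overlap. Pdgfd, a ligand of Pdgfrb, had a fold of the opposite sign (0.47, SE 0.17, adjusted p = 0.565) and Vegfb, a ligand of Flt1, one of -0.40 (SE 0.15, adjusted p = 0.586). Ephb4, a receptor of venous endothelium, was at -0.38 (SE 0.19). Of 14 tested basement membrane genes 0 were called, 1 had an unadjusted p under 0.05 and the median was -0.15. That gene was Agrn, which encodes agrin (-0.66, SE 0.24, adjusted p = 0.576), while Lama5 (-0.33, SE 0.27), Lamb1 (-0.20, SE 0.20) and Col4a1 (-0.20, SE 0.15), chains of laminin and type IV collagen, had larger p-values. The 1 gene of that list under the mean, Lama2, which encodes the laminin alpha 2 chain, had groups that did not overlap. With no filter on low values it was called higher (adjusted p = 0.00421).

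Most mesenchymal genes differed widely between libraries of 1 group. Of the 12 tested, 9 had positive and 3 negative folds. Their median on the log2 scale was 0.14, with a range from -0.47 to 0.36. The median was 0.09 to 0.22 over the scalings tried. It was -0.17 without antibody 2 or without isotype 6, and 0.57 without isotype 8, so single libraries set its sign. The summed level ran from 18.7 to 204.1 RPKM in the antibody libraries and from 21.2 to 194.7 RPKM in the isotype libraries.

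The fibrillar collagens had the widest ranges. Col1a1 (chr11:94936224-94953042), which encodes the alpha 1 chain of type I collagen, stood at 14.1, 50.1, 18.7, 2.94 and 3.15 RPKM in antibody 1 to 5 and at 1.79, 13.3, 45.1, 9.58 and 8.37 RPKM in isotype 6 to 10. Antibody 2 and isotype 8 were high, antibody 4 and 5 and isotype 6 were low, and each group held both kinds. The highest library was 27.9-fold above the lowest, the within-group SD of 1.60 on the log2 scale lay at the 99.7th percentile of tested genes, and the log2 fold change was 0.09 (SE 0.84, adjusted p = 0.993). Its 95% interval from -1.73 to 1.92 leaves room for more than a doubling or a halving. Col1a2, the alpha 2 chain of the same collagen, ran from 2.24 to 40.7 RPKM with the antibody and from 1.91 to 41.1 RPKM with the isotype control (0.11, SE 0.81, adjusted p = 0.991). Col3a1, the type III collagen of reticular fibres, stood at 25.4, 43.6, 20.6, 2.42 and 6.74 RPKM in antibody 1 to 5 and at 2.94, 10.2, 42.8, 8.53 and 14.7 RPKM in isotype 6 to 10. The same antibody 2 and isotype 8 were its highest libraries, and the log2 fold change was 0.24 (SE 0.76, adjusted p = 0.969).

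Antibody 2 and isotype 8 were also the highest libraries for the other matrix genes and for Pdgfra. Col6a1 and Col6a2, chains of the microfibrillar type VI collagen, had log2 fold changes of 0.17 (SE 0.53) and 0.20 (SE 0.58), and Col6a1 ranged from 1.11 to 9.68 RPKM over the 10 libraries. Dcn, which encodes the collagen-binding proteoglycan decorin, ranged from 1.599 to 26.6 RPKM with the antibody and from 2.51 to 23.3 RPKM with the isotype control (0.24, SE 0.65, adjusted p = 0.962). Lum, the related proteoglycan lumican, stood lower, at 0.165 to 2.15 and 0.303 to 2.70 RPKM (0.15, SE 0.42, adjusted p = 0.962). Pdgfra, the PDGF receptor of fibroblasts, was near 3 RPKM or above in antibody 1 (3.24), antibody 2 (3.77) and isotype 8 (3.40) and between 0.510 and 1.18 RPKM in the other 7 libraries. Its log2 fold change was 0.36 (SE 0.46, adjusted p = 0.912).

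Antibody 2 and isotype 8 also had the highest macrophage markers. The summed level of 13 macrophage markers was 831.6 RPKM in antibody 2 and 710.6 RPKM in isotype 8, and 95.9 to 318.9 RPKM in the other 8 libraries. Most of these 2 high sums was Lyz2, at 540.7 RPKM in antibody 2 and 440.6 RPKM in isotype 8. C1qa was also highest there, at 52.2 and 53.1 RPKM, but its lowest library still had 20.8 RPKM. None of the 13 markers was at 0 in every library, their part in the matrix values was not tested, and their median log2 fold change was 0.09 with 0 called. Without both libraries, a setting chosen after seeing the data, 0 of the 12 mesenchymal genes were called, the median was 0.18, and the log2 fold change of Col1a1 was 0.08.

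Of the mural cell genes, Pdgfrb, the PDGF receptor of pericytes and smooth muscle, had the smallest p of the 28 genes. It stood at 1.71, 2.07, 1.84, 0.972 and 1.23 RPKM in antibody 1 to 5 and at 1.63, 2.12, 3.06, 2.73 and 1.97 RPKM in isotype 6 to 10. Isotype 7, 8 and 9 lay above all antibody libraries, while isotype 6 and 10 lay among them. The means were 1.57 ± 0.45 and 2.30 ± 0.58 RPKM (SD, n = 5 each). The log2 fold change of -0.44 (SE 0.19) had an unadjusted limma p of 0.0401 and an adjusted p of 0.68 over all genes, with an exact permutation p of 0.0714. It is 1 gene of 26 at an unadjusted p under 0.05, where 7.02% of all tested genes had one.

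Rgs5, a regulator of G protein signalling abundant in pericytes, was the steadiest mesenchymal gene. It stood at 3.63, 3.59, 2.12, 3.17 and 3.87 RPKM in antibody 1 to 5 and at 3.58, 2.14, 2.91, 3.23 and 2.75 RPKM in isotype 6 to 10. The highest library was 1.82-fold above the lowest, and neither antibody 2 nor isotype 8 stood out. The means were 3.28 ± 0.69 and 2.92 ± 0.54 RPKM (SD, n = 5 each; log2 ratio 0.14, SE 0.17, adjusted p = 0.907, 95% interval from -0.23 to 0.50). Acta2, the smooth muscle actin of contractile mural cells and activated stellate cells, went with the collagens instead, at 6.90 RPKM in antibody 2 and 6.18 RPKM in isotype 8 and between 0.771 and 3.08 RPKM elsewhere (-0.10, SE 0.46, adjusted p = 0.983).

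Postn, the matricellular protein periostin of activated fibroblasts, had the most negative fold of the subgroup. It stood at 3.12, 6.22, 3.32, 1.85 and 2.73 RPKM in antibody 1 to 5 and at 1.11, 3.46, 5.21, 12.2 and 7.32 RPKM in isotype 6 to 10. Its highest libraries were isotype 9 and 10, not those of the collagens, and isotype 6 was the lowest. The means were 3.45 ± 1.65 and 5.86 ± 4.21 RPKM (SD, n = 5 each; log2 ratio -0.47, SE 0.47, adjusted p = 0.88).

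Of 23 tested further fibroblast, stellate cell and matrix genes, 15 had positive folds and the median was 0.10. With limma 0 of them were called and 1 had an unadjusted p under 0.05, where 7.02% of all tested genes had one. That gene was Igfbp5, an insulin-like growth factor binding protein (-0.64, SE 0.23, adjusted p = 0.549). The other genes with the smallest p were the surface protein gene Thy1 (0.53, SE 0.25), Ctgf, the connective tissue growth factor (-0.52, SE 0.32), and Mgp, the matrix Gla protein (-0.33, SE 0.27). Of 8 tested further pericyte and smooth muscle genes 0 were called and 1 had an unadjusted p under 0.05, with a median of -0.03. That gene was Mcam, an adhesion molecule of pericytes and endothelium, which stood at 2.84 to 4.40 RPKM with the antibody and 4.19 to 6.03 RPKM with the isotype control (-0.44, SE 0.13, unadjusted p = 0.0068, adjusted p = 0.372, exact permutation p = 0.0159). The channel gene Kcnj8 was at -0.22 (SE 0.25) and the contractile genes Tagln and Myh11 at 0.27 (SE 0.35) and 0.13 (SE 0.22).

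**Figure D3:**
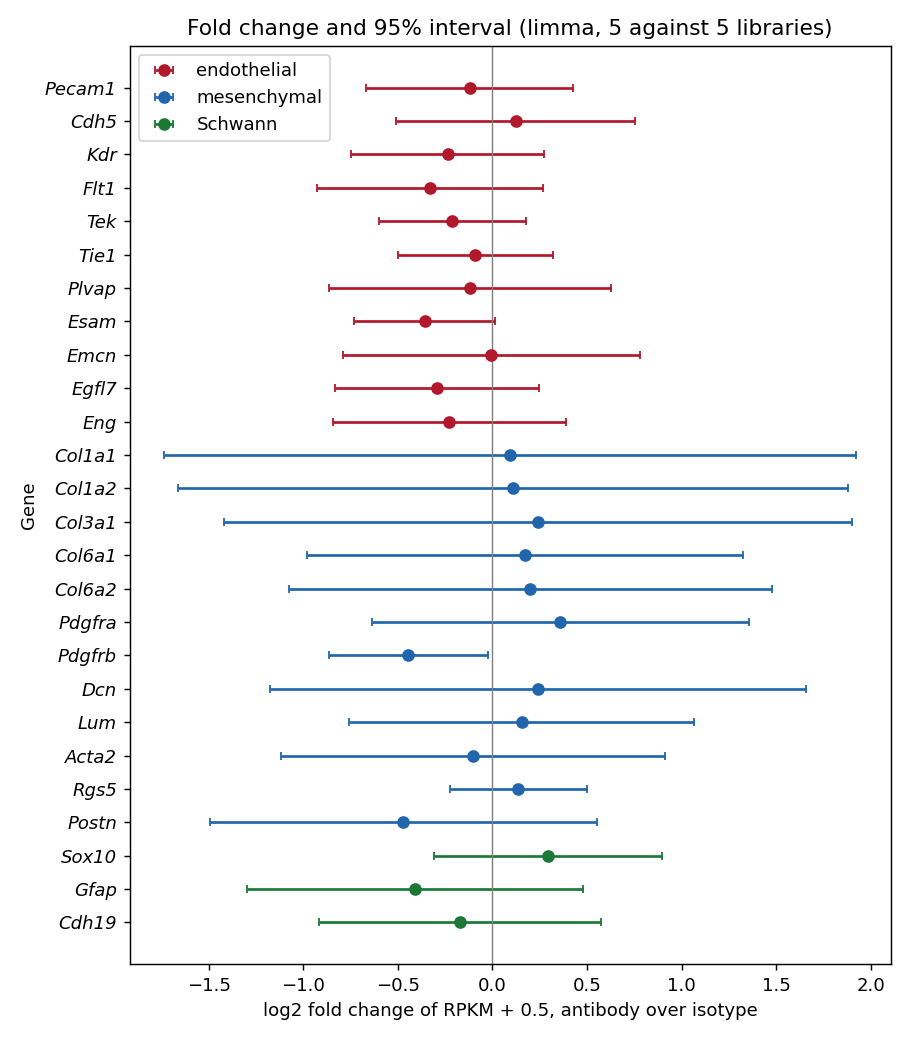
Log2 fold change of RPKM + 0.5, antibody over isotype, with its 95% interval (limma, 5 against 5 libraries) for the 26 tested genes, coloured by subgroup. Intervals of the fibrillar collagens span more than 3 log2 units, those of Esam, Pdgfrb and Rgs5 less than 1, and the Pdgfrb interval (-0.86 to -0.02) is the 1 that does not include 0.

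Schwann cell genes were low, with a summed level of 1.66 to 2.32 RPKM in the antibody libraries and 0.529 to 5.92 RPKM in the isotype libraries. Of the 3 tested, 2 had negative folds and 1 a positive one, and the median was -0.17. Gfap, 1 of the negative folds, only just reached the mean needed for testing (0.517 RPKM). Its isotype mean was 0.756, raised by isotype 9 (1.17) and 10 (2.21), and its antibody mean was 0.278. The count and the median therefore depend in part on those isotype libraries. With no filter S100b was added, at -0.33 (SE 0.20), and the median was -0.25. Under trimmed mean scaling Gfap fell under the mean needed for testing, and the median of Sox10 and Cdh19 alone was 0.11. In the main fit these genes had folds of 0.29 and -0.17. Because the gene set changed, that value cannot show an effect of the scaling. With all 3 genes the median was 0.09 without isotype 10 and 0.01 without isotype 9, so its sign did not hold. The antibody libraries lay close together and the isotype libraries far apart, with isotype 9 and 10 at the top and isotype 6 at the bottom.

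Sox10 (chr15:79154913-79164490), the transcription factor that specifies Schwann cells, stood at 0.98, 1.07, 1.11, 1.18 and 0.589 RPKM in antibody 1 to 5 and at 0.174, 0.565, 0.546, 1.58 and 1.09 RPKM in isotype 6 to 10. All antibody libraries lay between isotype 7 and isotype 9, and the log2 fold change was 0.29 (SE 0.28, adjusted p = 0.873). Cdh19 (chr1:110888002-110977601), a cadherin of Schwann cell precursors, stood at 0.832, 0.553, 0.515, 0.514 and 0.577 RPKM in antibody 1 to 5 and at 0.155, 0.422, 0.397, 1.54 and 2.06 RPKM in isotype 6 to 10. The antibody libraries all lay in the gap between isotype 7 and isotype 9 (means 0.598 ± 0.133 and 0.915 ± 0.835 RPKM, SD, n = 5 each; log2 ratio -0.17, SE 0.34, adjusted p = 0.951).

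Gfap, an intermediate filament of non-myelinating Schwann cells, had the widest range of the 28 genes, 38.2-fold. It stood at 0.33, 0.375, 0.396, 0.128 and 0.163 RPKM in antibody 1 to 5 and at 0.0579, 0.239, 0.0992, 1.17 and 2.21 RPKM in isotype 6 to 10, on an estimated 1.93 to 74.8 reads. Isotype 9 and 10 were the highest, and isotype 6 and 8 the lowest (log2 fold change -0.41, SE 0.41, adjusted p = 0.88). S100b, a calcium-binding protein of Schwann cells, was at 0.178, 0.163, 0.114, 0.165 and 0.332 RPKM in antibody 1 to 5 and at 0.142, 0.0971, 0.446, 0.727 and 0.561 RPKM in isotype 6 to 10. It rested on an estimated 1.77 to 15.96 reads, and the exact permutation p was 0.183. The groups overlapped, and the isotype libraries spread over most of the range.

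Of 17 tested further Schwann cell and glial genes 0 were called with limma and 3 had an unadjusted p under 0.05, with 10 negative folds and a median of -0.06. Over all tested genes 7.02% had such a limma p, and 7.14% had an exact permutation p under 0.05. Matn2, a matrix protein of the nerve sheath, stood at 3.29, 2.11, 1.97, 2.62 and 1.8 RPKM in antibody 1 to 5 and at 3.42, 2.61, 3.89, 7.42 and 6.52 RPKM in isotype 6 to 10. Isotype 9 and 10 were again the highest (log2 fold change -0.82, SE 0.25, adjusted p = 0.378, exact permutation p = 0.0238). Nes, which encodes nestin (-0.69, SE 0.26, adjusted p = 0.583), and Erbb3, the neuregulin receptor of Schwann cells that epithelial cells share (-0.52, SE 0.22, adjusted p = 0.653), were the other 2. Cnp, a myelin enzyme gene, was at -0.32 (SE 0.15).

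Pearson's r of log2(RPKM + 0.5) was computed for all 378 pairs of the 28 genes, and 72 pairs, 62 of them positive, had a permutation p under 0.05 after Benjamini-Hochberg adjustment over the 378. The libraries share their depth and RNA composition across genes, and the pairs are not independent of each other. The median r was 0.71 over 66 endothelial pairs, 0.77 over 66 mesenchymal pairs and 0.68 over 6 Schwann pairs. Between subgroups it was 0.15 over 144 endothelial and mesenchymal pairs, 0.10 over 48 mesenchymal and Schwann pairs and -0.59 over 48 endothelial and Schwann pairs, of which 44 were negative.

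**Figure D4:**
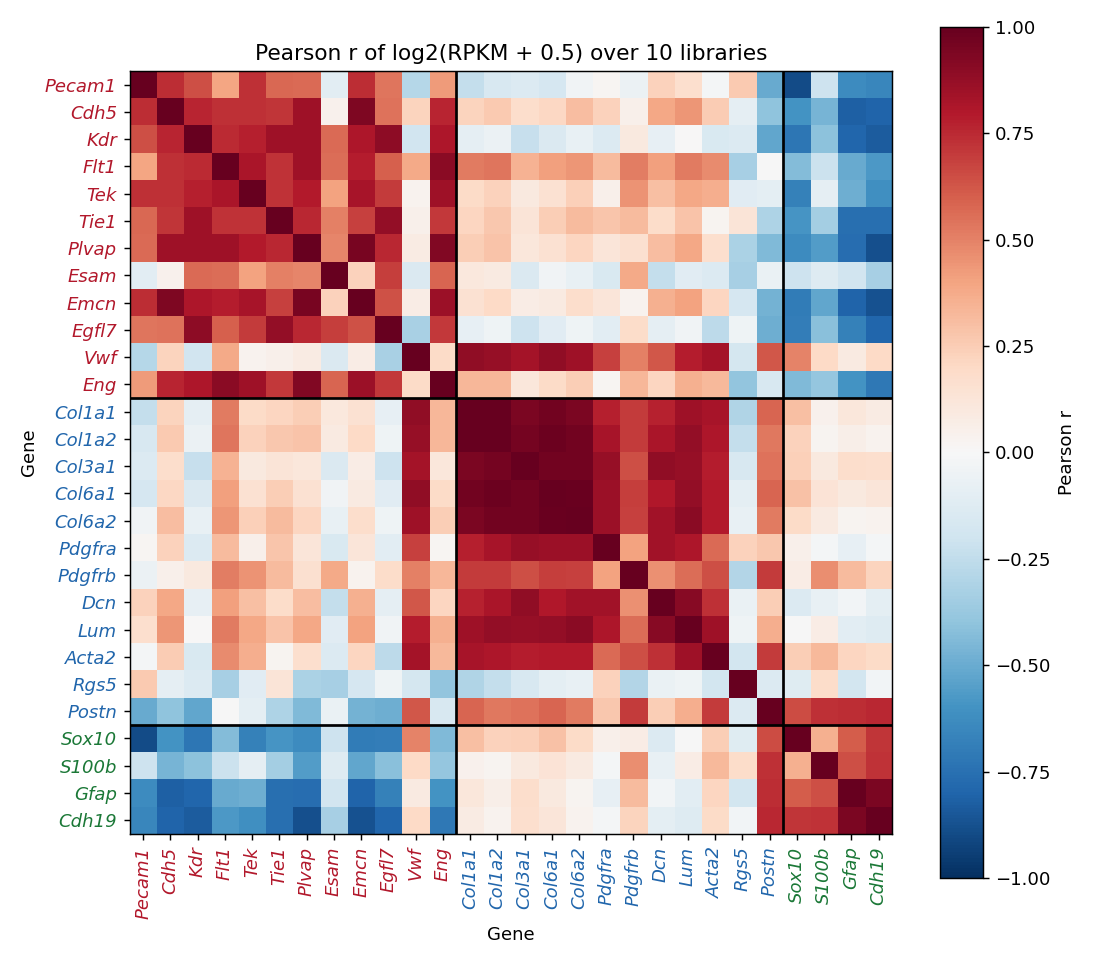
Pearson's r of log2(RPKM + 0.5) over the 10 libraries for each pair of the 28 genes, ordered by subgroup with lines between subgroups. The block of collagens and proteoglycans is the most uniform (median r 0.91 over 21 pairs), Vwf has its highest r with collagen genes, Rgs5 is pale throughout, and the endothelial and Schwann block is mostly negative.

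Within the matrix genes the agreement between libraries was close. Col1a1 and Col1a2, whose chains assemble into 1 protein, had r = 0.99 (permutation p = 1e-05, the smallest that 100000 resamples give, adjusted p = 0.00189) and Spearman's rho = 0.99 (permutation p = 1e-05), and r was 0.99 without antibody 2 and isotype 6. Over the 21 pairs of the 5 collagen genes, Dcn and Lum, r ran from 0.77 to 0.99 with a median of 0.91. Rgs5 had r between -0.30 and 0.23 with the other 11 mesenchymal genes (median -0.13). With Col1a1 it had r = -0.30 (permutation p = 0.401, adjusted p = 0.715) and rho = -0.18 (permutation p = 0.634). Pdgfrb and Col1a1 had r = 0.70 (permutation p = 0.0234, adjusted p = 0.0878) and rho = 0.65 (permutation p = 0.05), and r was 0.82 without antibody 2 and isotype 6. With the group means removed it was 0.92, so within groups Pdgfrb was high where Col1a1 was high. Acta2 and Col1a1 had r = 0.82 (permutation p = 0.00453, adjusted p = 0.0313) and rho = 0.66 (permutation p = 0.0442), with r = 0.64 without antibody 2 and isotype 6.

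Among endothelial genes, Cdh5 and Emcn had r = 0.94 (permutation p = 5e-05, adjusted p = 0.00236) and rho = 0.93 (permutation p = 0.00039), with r = 0.86 without isotype 9 and 10. Cdh5 and Col1a1 had r = 0.22 (permutation p = 0.538, adjusted p = 0.836) and rho = 0.31 (permutation p = 0.385). Vwf had a median r of 0.05 to the other 11 endothelial genes and 0.81 to the 12 mesenchymal genes. With Col1a1 it had r = 0.89 (permutation p = 7e-05, adjusted p = 0.00262) and rho = 0.96 (permutation p = 4e-05), and r was 0.89 without isotype 6 and 8. With Cdh5 it had r = 0.22 (permutation p = 0.537, adjusted p = 0.836) and rho = 0.37 (permutation p = 0.293). Of the 12 pairs of Vwf with mesenchymal genes 7 had an adjusted p under 0.05, those with the 5 collagen genes, Lum and Acta2, against 0 of 11 with endothelial genes. With Rgs5 its r was -0.17 (permutation p = 0.626, rho = -0.09, permutation p = 0.812), and the difference between these sets of correlations was not tested.

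Of the 48 endothelial and Schwann pairs, 10 had an adjusted p under 0.05, all with negative r, and none of these involved Esam or Vwf. Plvap and Cdh19 had r = -0.88 (permutation p = 0.00027, adjusted p = 0.00557) and rho = -0.93 (permutation p = 0.00039), with r = -0.86 without isotype 8 and 10. Pecam1 and Sox10 had r = -0.89 (permutation p = 0.00063, adjusted p = 0.0108) and rho = -0.89 (permutation p = 0.00091), with r = -0.93 without antibody 5 and isotype 6. Other pairs depended on isotype 9 and 10. Cdh5 and Gfap had r = -0.82 (permutation p = 0.00401, adjusted p = 0.0303) and rho = -0.58 (permutation p = 0.0902), and r was -0.23 without them. Cdh5 and Cdh19 had r = -0.80 (permutation p = 0.00707, adjusted p = 0.0423) and rho = -0.68 (permutation p = 0.0348), and r was -0.25 without them. Gfap and Cdh19 had r = 0.94 (permutation p = 0.00028, adjusted p = 0.00557) and rho = 0.83 (permutation p = 0.00452). That relation rested in part on isotype 9 and 10, without which r was 0.66. Postn and Cdh19 had r = 0.75 (permutation p = 0.0119, adjusted p = 0.0583) and rho = 0.54 (permutation p = 0.115), and r = 0.49 without isotype 6 and 9. With the group means removed, r was -0.91 for Plvap and Cdh19, -0.90 for Pecam1 and Sox10, 0.95 for Gfap and Cdh19 and 0.91 for Vwf and Col1a1. These values were at least as large as those over all libraries.

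**Figure D5:**
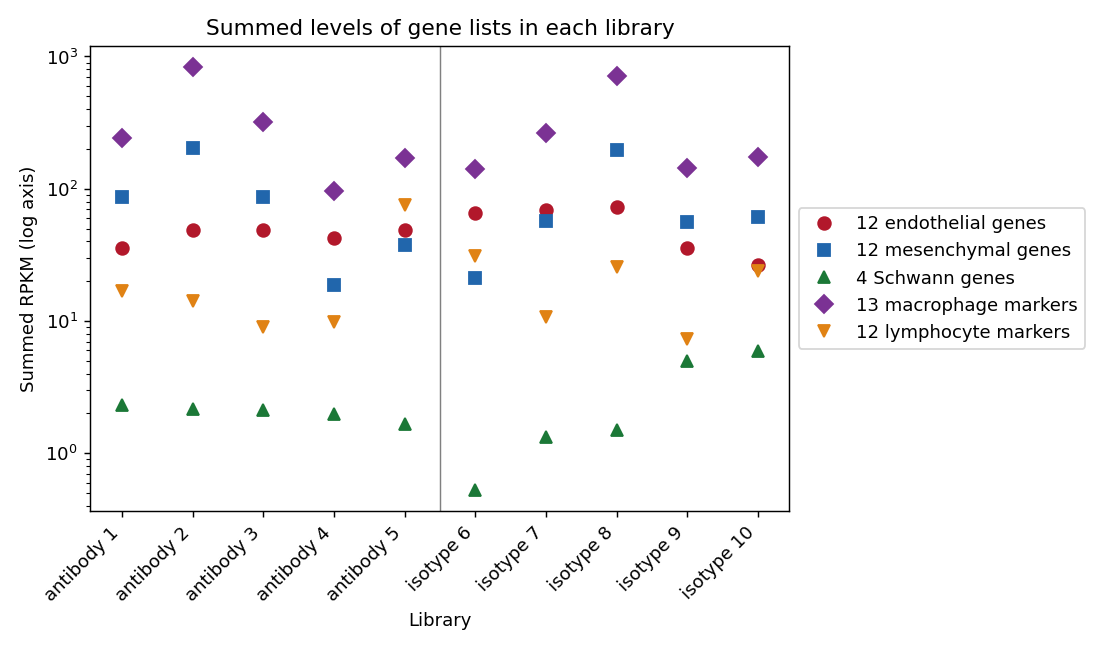
Summed RPKM, on a log axis, of the 12 endothelial, 12 mesenchymal and 4 Schwann cell genes and of the macrophage and lymphocyte markers in each library, with a line between the antibody and isotype groups. The mesenchymal and macrophage sums are both highest in antibody 2 (204.1 and 831.6 RPKM) and isotype 8 (194.7 and 710.6 RPKM), isotype 6 combines a high endothelial sum (65.4 RPKM) with the lowest Schwann sum (0.529 RPKM), and isotype 10 has the lowest endothelial (26.5 RPKM) and the highest Schwann sum (5.92 RPKM).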

How the data were processed

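RNA-seq of pancreatic islets was used as 1 table of RPKM values that the authors deposited for 10 libraries. Per the labels' protocols, islets were isolated on a Histopaque gradient, RNA with a miRNeasy kit and libraries with Nextera XT, which does not mark the strand. The submitters' processing notes name GRCm38, mm10, CASAVA 1.8.2 and FastQC; the aligner, counting program and annotation were not given in those sources. Reads per library were estimated from the steps of low RPKM values (70.7% to 75.9% within 0.1 of whole reads), so no count model was fitted. limma 3.58.1 (R 4.3.3, variance trend) was fitted on log2(RPKM + 0.5) over all 13450 genes whose mean reached 0.5 RPKM; single genes also had a two-sided exact permutation test over 252 assignments. The fit was first tested on simulated data. Permutation p-values of correlations used 100000 resamples (Python 3.11.15, scipy 1.17.1).

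The genes and lists were chosen with earlier results of these data known. Named were all 28 genes, the 4 tested genes of smallest p in each related list, the 2 of highest level in each list of other cell types where used, and Gcg. Alternatives were other pseudocounts, filters, scalings and variance models, and leaving libraries out. Coordinates and sequences are from RefSeq GRCm38.p6.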

Additional observations from a re-analysis of the deposited data

Results flagged for a closer look

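Of 56 groups of 5 libraries (28 genes in 2 groups), 4 held a library whose gap to its nearest neighbour was too large a part of the group's range by Dixon's test at 95%; chance flags about 1 in 20 groups. Pecam1 in antibody 5 stood at 8.29 RPKM, above the other antibody libraries (3.46 to 4.41), and the gap was 0.73 of the range. Sox10 in the same library stood at 0.589 RPKM, below the other antibody libraries (0.98 to 1.18). Lum in isotype 8 stood at 2.70 RPKM, where the next isotype library had 0.599 RPKM. Cdh19 in antibody 1 stood at 0.832 RPKM, above the other antibody libraries (0.514 to 0.577).

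Antibody 5 had the highest lymphocyte marker sum (74.8 RPKM) and isotype 8 a high macrophage marker sum (710.6 RPKM). The part of either in these values was not tested.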

How the results depend on the processing

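Over 22 alternative settings no tested gene of the 28 was called (smallest adjusted limma p 0.209). All 26 were run except with a minimum mean of 5 RPKM, which left 9 and no Schwann gene, and with trimmed mean scaling, which left 25, without Gfap. Of the values, 511 of 554 kept their sign; 13 genes changed it at least once, always without a call. No paired analysis was possible because the groups share no replicate numbers. With array weights the log2 fold change was -0.086 for Cdh5 and 0.037 for Acta2. For Emcn it was 0.0029 with a pseudocount of 0.1, 0.070 with median centring, 0.053 with quantile normalization and 0.048 with trimmed mean scaling. Without antibody 2 and isotype 8, chosen after seeing the data, it was 0.13 for Emcn and 0.015 for Plvap. With libraries left out, the lowest and highest values were -0.43 and 0.020 for Pecam1, -0.21 and 0.30 for Cdh5, -0.37 and 0.073 for Plvap, -0.35 and 0.19 for Emcn, -0.46 and 0.62 for Col1a1, -0.41 and 0.67 for Col1a2, -0.20 and 0.80 for Col3a1, -0.14 and 0.53 for Col6a1, -0.13 and 0.64 for Col6a2, -0.15 and 0.77 for Dcn, -0.094 and 0.51 for Lum, -0.44 and 0.16 for Acta2 and -0.40 and 0.10 for Cdh19. The cause was not tested.

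Over all genes 53 were called higher and 2 lower. These counts were 23 and 0 with a minimum mean of 5 RPKM, which tests fewer genes, and 121 and 61 with array weights. They were 27 and 0 without antibody 2 and isotype 8. The count lower was 1 with no filter, 5 with quantile normalization and 1 with no variance trend. With libraries left out the count higher ran from 27 to 50 and the count lower from 0 to 20. The cause of the other changes was not tested.

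S100b and Gfap rested on the fewest estimated reads, down to 1.77 and 1.93, and Col1a1, Col1a2 and Col3a1 had the widest 95% intervals.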

Other observations

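Lama2, which encodes the laminin alpha 2 chain found in basement membranes of Schwann cells and mural cells, was in the basement membrane list but under the mean of 0.5 RPKM needed for testing. It was singled out after its values were seen. It stood at 0.426, 0.383, 0.479, 0.436 and 0.408 RPKM in antibody 1 to 5 and at 0.121, 0.149, 0.173, 0.173 and 0.088 RPKM in isotype 6 to 10, on an estimated 10.8 to 72.8 reads. The groups did not overlap, all antibody values being higher, and the ratio of the means was 3.02 (0.426 ± 0.0358 and 0.141 ± 0.0365 RPKM, SD, n = 5 each; exact permutation p = 0.00794, the smallest possible here). With no filter on low values Lama2 had a log2 fold change of 0.53 on the RPKM + 0.5 scale (SE 0.05) and a adjusted limma p of 0.00421 over 19832 genes. None of the 28 genes had groups that did not overlap, a count near the share of 1.99% over all tested genes.

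Fn1, the matrix protein fibronectin, also named after its values were seen, had 91.99 RPKM in antibody 2, 61.2 RPKM in isotype 8 and 1.83 to 36.7 RPKM in the other libraries, a 50.4-fold range with a log2 fold change of 0.34 (SE 0.93, adjusted p = 0.962). Its 2 highest libraries were those of the collagens.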
